A study of Mus musculus with 16 samples.

Results

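Genes of primary cilium transport and of the transition zone, with genes named as centrosomal proteins, were followed in RNA-Seq libraries of CD11b+ brain cells, and were picked by a rule on gene names and a count filter. Rows of the count table were taken when the name began with Ift or Cep and a number, was Bbs or Nphp and a number, or was Tctn1 to Tctn3, Kif3a to Kif3c, or Tmem17, Tmem67, Tmem107, Tmem216, Tmem231 or Tmem237, and when more than 10 counts stood in at least 4 of the 16 libraries. That gave 73 genes of the 14565 that passed the same count filter and of 24421 rows, and all 73 named rows passed it. They comprised 14 IFT genes, 8 BBSome genes, 3 kinesin-2 motors, 13 transition zone genes, 13 CEP genes of distal appendages and ciliogenesis, and 22 other CEP genes. Genes of the subdistal appendages, such as Cep170, were placed among the other CEP genes.

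Cells build a cilium by carrying its parts along a core of microtubules. Intraflagellar transport (IFT) trains, made of the IFT-A and IFT-B complexes, are pulled towards the tip by kinesin-2 and back by dynein-2, and the BBSome loads membrane proteins such as receptors onto them. The transition zone is the gate at the base, with modules named after Meckel syndrome and nephronophthisis (NPHP) genes, and centrosomal (CEP) proteins build the centriole, the appendages that dock it to the membrane and the satellites around it. In brain, ependymal and choroid plexus epithelial cells carry tufts of cilia, and neurons and astrocytes usually carry a solitary primary cilium.

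Libraries came from female C57BL/6J mice that were newly weaned when the diets began, and CD11b+ cells were pulled from dissociated cerebrum with magnetic beads. Mice of the 4 control (CON) libraries ate standard chow, those of the 5 malnourished (MAL) libraries ate an isocaloric diet low in protein and fat for a month, and those of the 7 MAL-BG libraries ate the low diet and were gavaged 3 times with a mixture of E. coli and Bacteroidales species. CON and MAL mice were gavaged with saline. By treatment, MAL-BG thus differs from CON in diet and bacteria and from MAL in bacteria alone, and MAL-BG libraries enter both comparisons. No label names a batch, so a batch difference between the groups could not be checked. Library totals ran from 10312703 to 13461574 counts for CON, from 10864121 to 12819982 in MAL and from 14191791 to 18705202 in MAL-BG, and the MAL-BG totals were higher (p = 0.00606 versus CON, p = 0.00253 versus MAL, exact permutation, two-sided). Itgam, which encodes CD11b and was not called, stood at 1056 ± 109 CPM in CON against 1086 ± 183 in MAL and 1263 ± 113 in MAL-BG (mean ± SD over 4, 5 and 7 libraries, as in all such values here). Values are CPM, counts scaled to a common library size, and a gene is said to have risen or fallen when its adjusted p was under 0.05 and its log2 fold change was beyond 0.58 in either direction.

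RFX factors bind the X-box, an imperfect inverted repeat known from promoters of ciliary genes. The letters of an X-box were searched on both strands of RefSeq promoter windows (GRCm38.p6, 250 bases before to 50 after each annotated start), which exist for 62 of the 73 genes. It matched in 8 of the 62 (12.9%) and in 2.01% of the tested genes with a window, and its half-site GTTGCC, which lies within many of those matches, matched in 24 (38.7%) against 15.1%. By role, the transition zone held most, 4 of 10 genes, and the kinesin-2 motors held none of 3. Of the 28 genes that fell in both MAL-BG comparisons, 22 had a window and 4 of these held a match, Ift57, Bbs1, Tctn2 and Tmem237. Their matches are shown to set them beside those of Tctn1, Tctn3, Cep41 and Cep112, which did not fall in either comparison. Letters run 5′ to 3′ on the strand of the gene, with the match in capitals, and Ift57 and Cep112 each held a second match that is not shown.
Ift57, chr16:49699228-49699252, plus strand: cctgcgGTTGCCTGGTAACggtggg
Bbs1, chr19:4906607-4906632, minus strand: gagctgGTTGCCAAGGCGACgcctgg
Tctn2, chr5:124598681-124598706, plus strand: ttggagGTTACCATGGCTACtggtcc
Tmem237, chr1:59120104-59120129, minus strand: gtcagcGTTGCCATGGCGACgcctcc
Tctn3, chr19:40612353-40612377, minus strand: ccagcgGTTGCCAGGTAACgggaac
Tctn1, chr5:122264411-122264430, minus strand: gtgactGTTGCCCGGGCAAC
Cep41, chr6:30693860-30693886, minus strand: tcccgcGTTGCCCTTGGCAACcattga
Cep112, chr11:108425176-108425201, plus strand: cggagcGTCGCCATGGCAACagagtt
The GTTGCC half-site opens 6 of the 8 printed matches and occurs in genes that fell as well as in genes that did not. A match is a string of letters, and no binding was measured.

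Malnutrition alone was not accompanied by a called change in any of the 73 genes. MAL versus CON called 0 of them, and 0 of 14565 genes (0%), with edgeR, and 0 of the 73 with DESeq2. At an unadjusted p under 0.05 it held 0 of the 73 against 1.46% of all genes. Fitted differences ran from -0.41 for Ift43 to 0.29 for Cep55, with a median of -0.05 against -0.02 over all genes tested. They were negative for all 14 IFT genes (median -0.18) and 12 of 13 transition zone genes (median -0.16). Among the other CEP genes 5 of 22 were negative (median 0.09). Of all genes, 7923 of 14565 were negative, and these differences by role were not tested.

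Bacterial exposure on the low protein and fat diet went with lower levels across the cilium genes. Against CON, 30 of the 73 fell (41.1%, where 21.7% of all genes fell) and 1 rose (1.37%, where 11.4% rose). Against MAL, 30 fell (41.1% against 20.2%) and 1 rose (1.37% against 10.2%). The 2 comparisons share the MAL-BG libraries, and 28 genes fell in both (38.4% against 18.2%). Ift81 and Tmem231 fell against CON only, Cep192 and Cep350 passed only against MAL, and these differences between the comparisons were not tested. Cep44 was the gene that rose, in both.

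**Figure D1:**
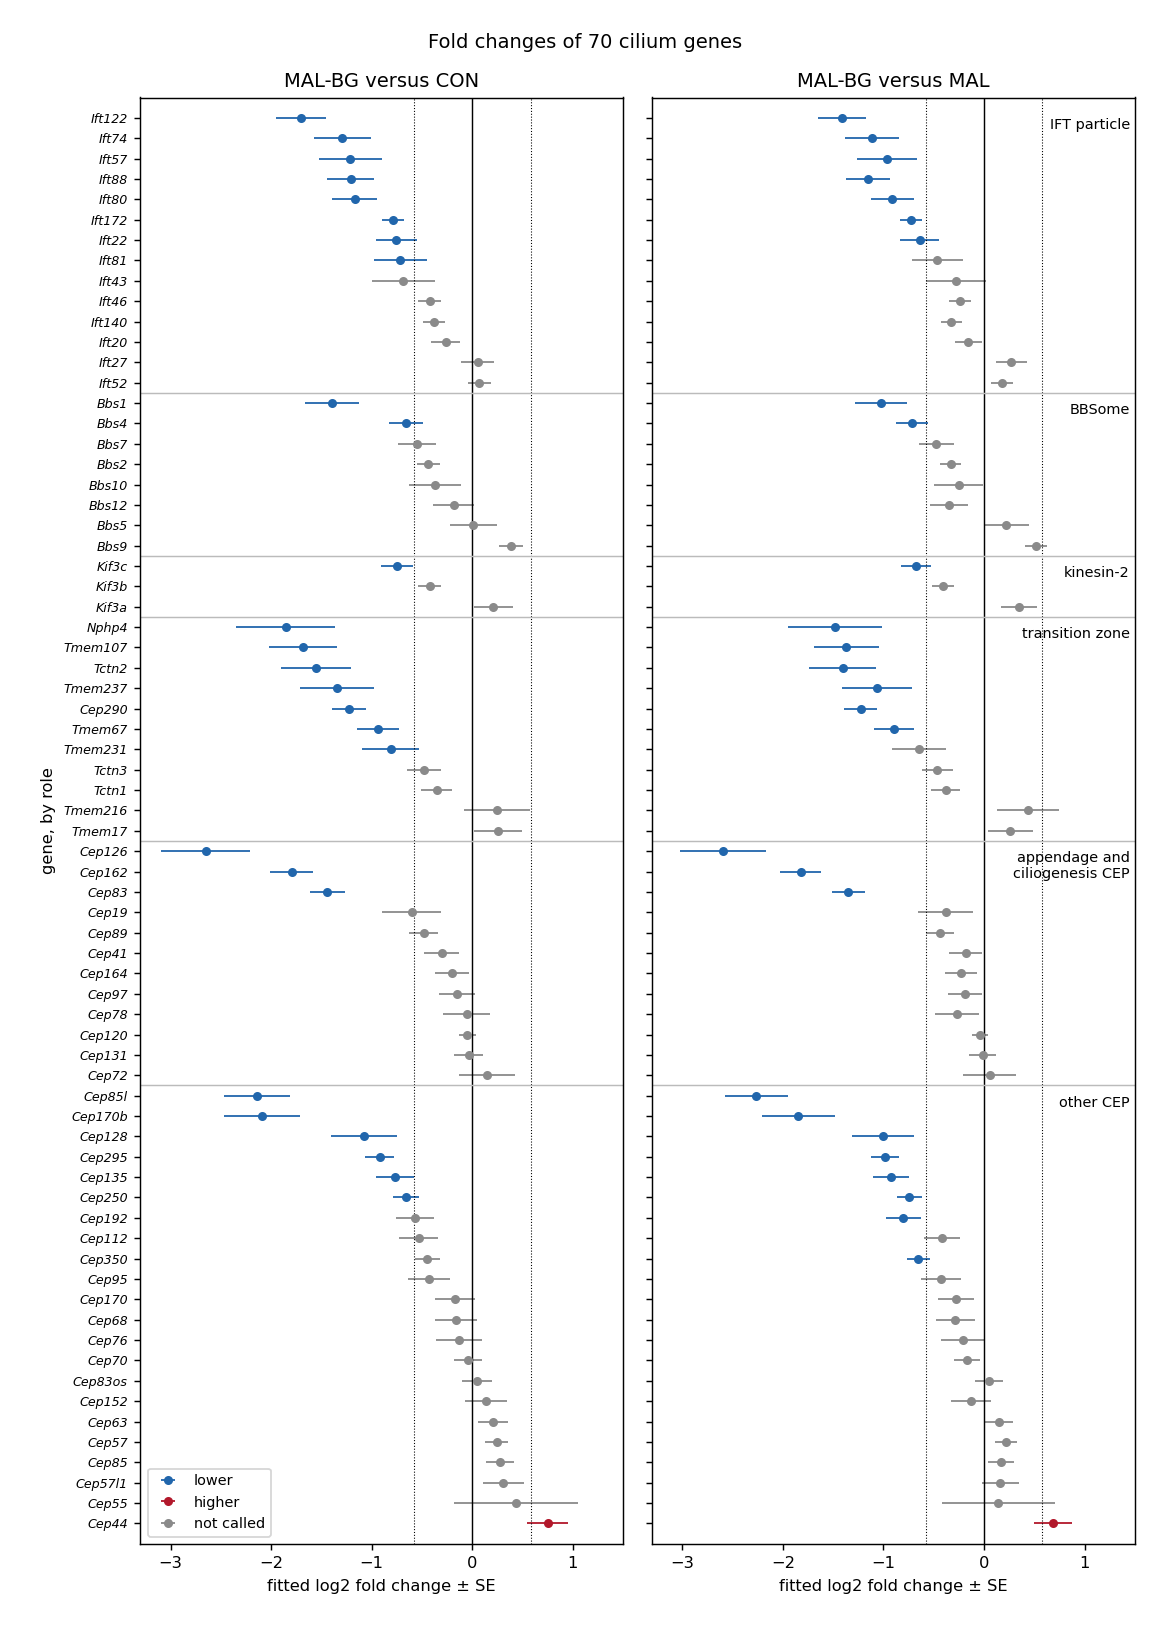
Fitted log2 fold change of 70 of the 73 genes, with its SE, for MAL-BG versus CON (left) and MAL-BG versus MAL (right), grouped by role. Blue points fell, red points rose and grey points were not called, and dotted lines mark 0.58 in each direction. IFT and transition zone genes crowd the left, Cep126 lies farthest left at -2.65 and -2.60, and Cep44 alone is red.

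Across the 73 the median fitted difference was -0.48 against CON and -0.42 against MAL, beside -0.04 and -0.03 over all genes tested. With the adjusted p alone and no limit on size, 40 genes were lower and 2 higher against CON (25.2% and 19.8% of all genes), and 37 and 2 against MAL (24.1% and 20.2%). Counted in another way, all 7 MAL-BG libraries lay below the other 9 for 11 genes (15.1% against 6.36%) and above them for 0 (6.17% of all genes). Among the 11 were Ift172, Bbs4, Cep290, Cep162, Cep83, Cep85l, Cep295, Cep250 and Cep350. Together the 73 took 0.187% to 0.215% of the counts of CON libraries, 0.164% to 0.212% of those of MAL and 0.118% to 0.154% of those of MAL-BG, and the MAL-BG libraries did not overlap the others.

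**Figure D2:**
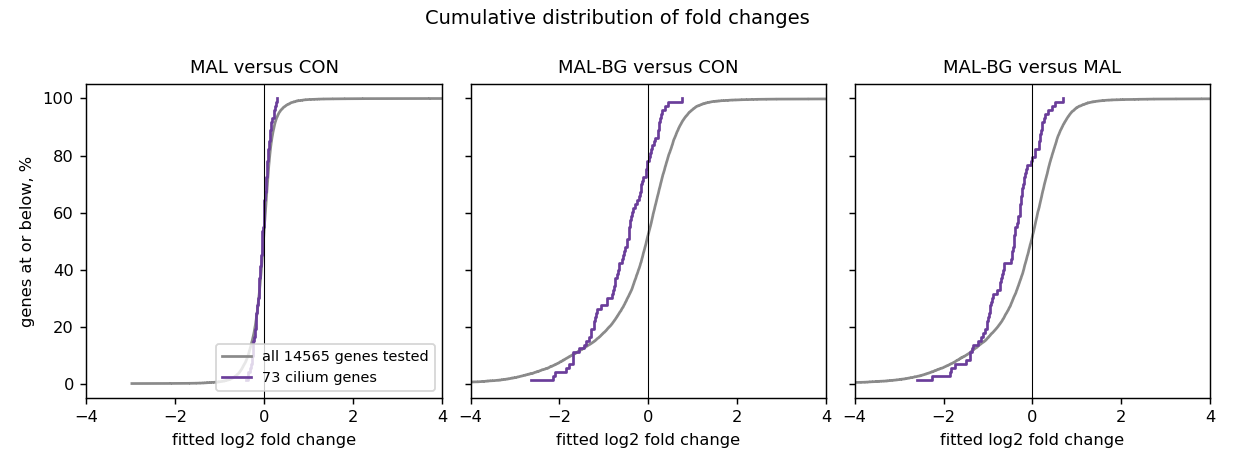
Cumulative percent of genes at or below each fitted log2 fold change, for the 73 cilium genes and for all 14565 genes tested, in 3 comparisons. The curves nearly coincide in MAL versus CON, and the cilium genes lie to the left over most of the range in both MAL-BG comparisons, with medians of -0.48 and -0.42.

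At the edge of the call against CON, Bbs4 (-0.66) was the last to pass, Cep192 (-0.57) passed the adjusted p only, and Ift43 and Cep19 (-0.68 and -0.60) passed the size only. Against MAL, Ift22 (-0.64) was the last, Bbs7 (-0.47) passed the adjusted p only, and Tmem231 (-0.65) passed the size only. The scale matters for the count. Scaling each library by its mean log2 CPM moved the median of all genes to 0.21 against CON and 0.19 against MAL and turned the calls over all genes from 3161 lower and 1659 higher into 2403 lower and 3298 higher against CON. On that scale 22 of the cilium genes fell and 2 rose against CON, 24 fell and 2 rose against MAL, and their medians were -0.23 and -0.21.

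IFT particle genes were among the groups with the most genes lower. Of 14, 8 fell against CON and 7 against MAL, where 21.7% and 20.2% of all genes fell. In this group 0 rose, where 11.4% and 10.2% of all genes rose, and medians were -0.74 and -0.55. In IFT-A, Ift122 fell and the other 2, Ift140 and Ift43, did not pass. Of 11 IFT-B genes, 7 fell against CON (Ift74, Ift57, Ift88, Ift80, Ift172, Ift22 and Ift81) and 6 against MAL.

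Ift122 (chr6:115853379-115926699), a core subunit of IFT-A, read 19.2, 28.9, 24.04 and 23.6 CPM in the 4 CON libraries, 14.8, 27.0, 26.4, 9.43 and 20.1 in the 5 MAL libraries, and 5.34 (lowest), 6.83 (median) and 10.8 (highest) in the 7 MAL-BG libraries. Library by library, every MAL-BG value lay below every CON value, and MAL replicate 4 lay within the MAL-BG range. Its log2 fold change was -1.70 (SE 0.25, adjusted p = 9.09e-05) against CON and -1.41 (SE 0.24, adjusted p = 0.00025) against MAL, which is 3.26-fold and 2.66-fold lower. Ift172 (chr5:31253279-31291391), a large IFT-B subunit with the highest CPM of the group, read 99.8, 78.02, 67.8 and 73.2 CPM in the 4 CON libraries, 72.1, 83.5, 76.9, 72.7 and 76.8 in the 5 MAL libraries, and 40.1 (lowest), 44.3 (median) and 55.6 (highest) in the 7 MAL-BG libraries. Here MAL-BG did not overlap the other 9 libraries, and the smaller fall of -0.79 (SE 0.11, adjusted p = 8.54e-05) against CON and -0.73 (SE 0.11, adjusted p = 9.78e-05) against MAL came with a narrower spread than that of Ift122. On the mean log2 CPM scale it was -0.55 and -0.50, short of the size limit.

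Ift52 (chr2:163017117-163046155), an IFT-B core subunit, had the highest fold change of the group against CON, without a call, 0.07 (SE 0.11, adjusted p = 0.638) against CON and 0.18 (SE 0.11, adjusted p = 0.179) against MAL. It read 37.5, 42.7, 44.1 and 36.6 CPM in the 4 CON libraries, 34.8, 41.2, 34.7, 32.5 and 43.1 in the 5 MAL libraries, and 37.5 (lowest), 41.9 (median) and 50.9 (highest) in the 7 MAL-BG libraries. The 3 ranges overlapped. Per kilobase of exon, Ift20 (19.9 CPM per kb in CON), Ift52 (14.4) and Ift172 (12.05) stood highest in the group, and of these Ift172 alone was called.

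Among 8 BBSome genes, Bbs1 and Bbs4 fell in both comparisons and 0 rose, where 21.7% and 20.2% of all genes fell against CON and MAL, and the medians were -0.40 and -0.34. Bbs2, Bbs5, Bbs7 and Bbs9, which encode other BBSome subunits, and Bbs10 and Bbs12, which encode chaperonin-like proteins that help to assemble it, were not called.

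Bbs1 (chr19:4886878-4906653), the subunit through which the BBSome meets the GTPase ARL6, read 15.4, 29.1, 21.99 and 21.04 CPM in the 4 CON libraries, 10.2, 27.1, 20.1, 10.1 and 17.04 in the 5 MAL libraries, and 6.49 (lowest), 6.83 (median) and 13.99 (highest) in the 7 MAL-BG libraries. MAL-BG replicate 3 was the highest of its group and stood above MAL replicates 1 and 4, and the CON libraries did not overlap MAL-BG. The log2 fold change was -1.39 (SE 0.27, adjusted p = 0.000758) against CON and -1.02 (SE 0.26, adjusted p = 0.00464) against MAL. Bbs9 (chr9:22475559-22888283), another subunit with the highest CPM of the group, read 39.2, 35.6, 34.9 and 35.6 CPM in the 4 CON libraries, 32.3, 32.9, 28.4, 37.6 and 34.4 in the 5 MAL libraries, and 34.0 (lowest), 48.0 (median) and 54.7 (highest) in the 7 MAL-BG libraries. In MAL-BG, 6 of the 7 values lay above all others and replicate 3 lay among them, and the difference of 0.38 (SE 0.12, adjusted p = 0.0162) against CON and 0.52 (SE 0.11, adjusted p = 0.00174) against MAL stayed below the size limit. Bbs9 passed that limit against CON (0.63) and MAL (0.74) on the mean log2 CPM scale. Against MAL it also passed with length and GC offsets (0.62), and without CON replicate 1 and MAL replicate 4 (0.62). Bbs2 (chr8:94067952-94099369) had 21.5 ± 2.497 CPM in CON against 20.1 ± 1.23 in MAL and 15.9 ± 1.54 in MAL-BG, and the log2 difference of -0.44 relative to CON and -0.33 relative to MAL also stayed below the limit. Bbs1 and Bbs9, named as the largest fall and the largest rise of the group against CON, had fold changes of opposite sign in both comparisons.

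Kinesin-2 motors differed from one another too. KIF3A pairs with KIF3B in the motor that drives IFT towards the tip, and with KIF3C in a motor best known from neurons. Kif3c (chr12:3365132-3406494) read 23.1, 25.1, 30.5 and 26.9 CPM in the 4 CON libraries, 26.5, 24.1, 26.2, 22.1 and 26.8 in the 5 MAL libraries, and 12.8 (lowest), 14.5 (median) and 23.7 (highest) in the 7 MAL-BG libraries. It fell, with a log2 fold change of -0.75 (SE 0.16, adjusted p = 0.00132) against CON and -0.68 (SE 0.15, adjusted p = 0.00185) against MAL, and its highest MAL-BG library overlapped CON and MAL. Without MAL-BG replicate 4 or 7 it was -0.58 and -0.57 against MAL, short of the limit, and it missed the limit on the mean log2 CPM scale as well (-0.49 and -0.45). Antisense genes overlap Kif3c, the longest by 35.34% of its exon length, and whether the counting used strand is not given in the sources used here.

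Kif3b (chr2:153291395-153333390), the motor with the highest CPM, read 74.9, 78.6, 68.5 and 67.7 CPM in the 4 CON libraries, 82.8, 69.7, 73.2, 64.9 and 67.9 in the 5 MAL libraries, and 43.5 (lowest), 52.9 (median) and 69.9 (highest) in the 7 MAL-BG libraries. In MAL-BG, 6 of the 7 values lay below all others, and its difference of -0.42 (SE 0.11, adjusted p = 0.00692) against CON and -0.41 (SE 0.11, adjusted p = 0.00602) against MAL was below the size limit. Kif3a (chr11:53565701-53604248) read 34.6, 46.6, 43.2 and 39.5 CPM in the 4 CON libraries, 30.6, 42.4, 39.6, 33.4 and 39.98 in the 5 MAL libraries, and 30.8 (lowest), 52.3 (median) and 63.8 (highest) in the 7 MAL-BG libraries. It had the widest MAL-BG range of the 3 motors and a difference of 0.21 (SE 0.19, adjusted p = 0.402) against CON and 0.35 (SE 0.18, adjusted p = 0.13) against MAL, not called.

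**Figure D3:**
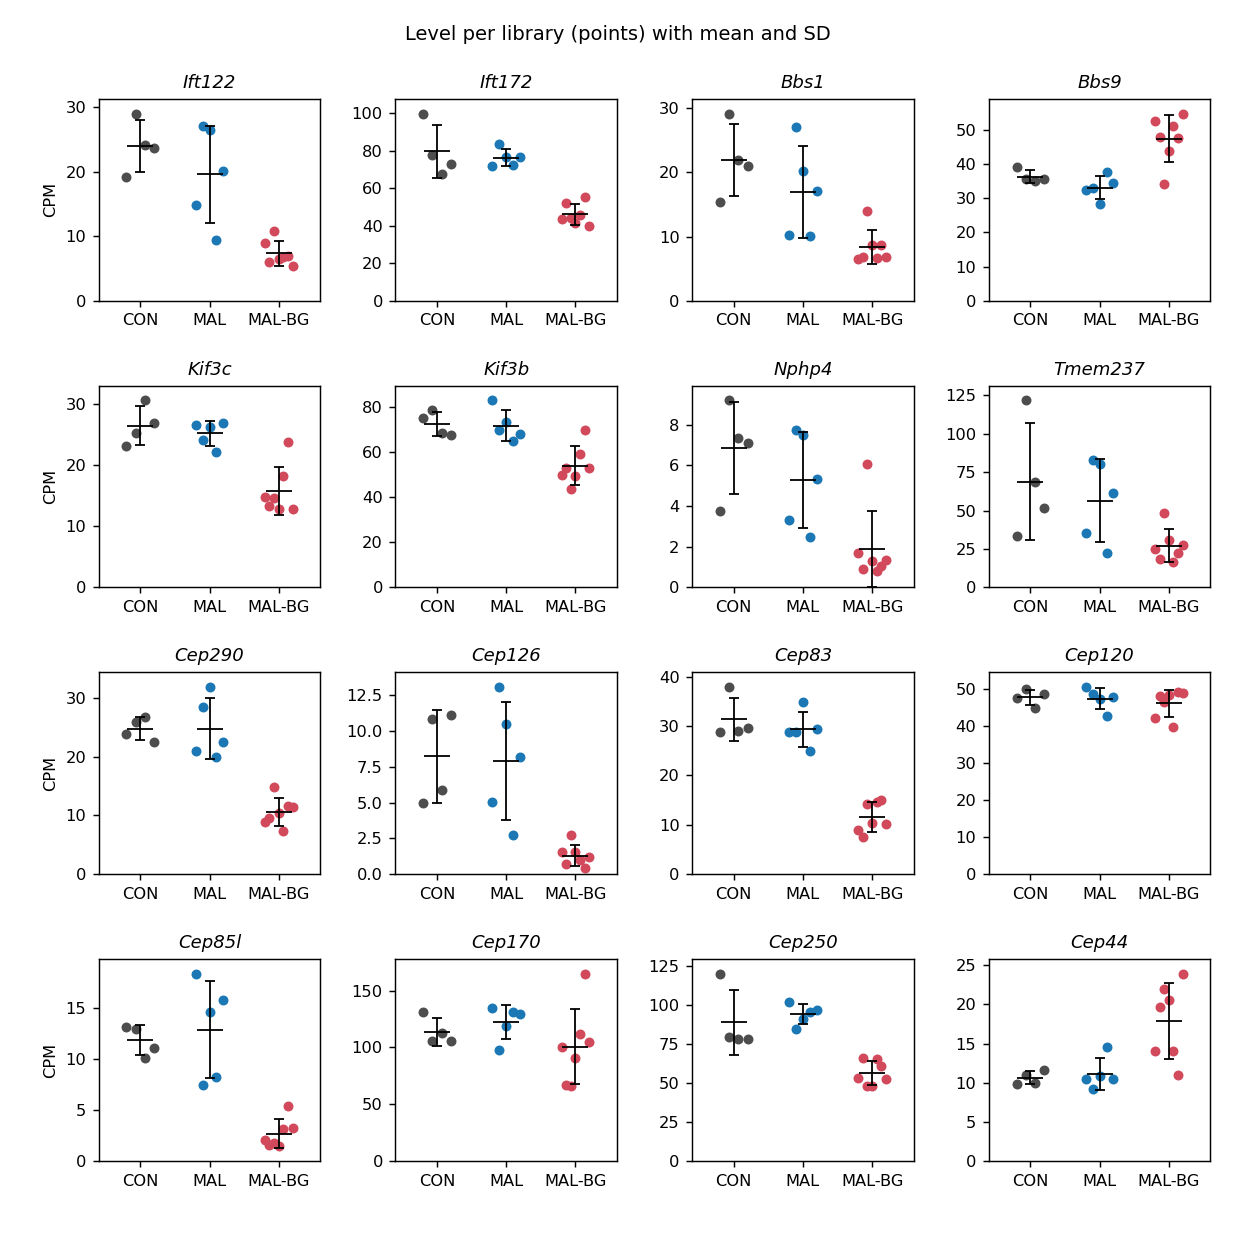
CPM of 16 of the genes in each library, by group, with the mean and SD as black bars and each vertical axis starting at 0. MAL-BG points lie below all others for Ift172, Cep290, Cep83, Cep85l and Cep250, overlap them for Nphp4, Tmem237 and Cep120, and lie mostly or partly above them for Bbs9 and Cep44.

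Transition zone genes held the largest share of falls. Of 13, 9 fell against CON and 8 against MAL, where 21.7% and 20.2% of all genes fell. In this group 0 rose, where 11.4% and 10.2% of all genes rose, and the medians of -1.16 and -0.96 were the lowest of the 6 groups. Among the 9 were Nphp4, Tmem107, Tctn2, Tmem237, Cep290, Tmem67 and Tmem231, whereas Tctn1, Tctn3, Tmem17 and Tmem216 were not called. Genes of both the Meckel module and the NPHP module were among the 9.

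Nphp4 (chr4:152476706-152563184), a subunit of the NPHP module, read 3.76, 9.18, 7.33 and 7.12 CPM in the 4 CON libraries, 3.32, 7.76, 7.49, 2.498 and 5.34 in the 5 MAL libraries, and 0.814 (lowest), 1.31 (median) and 6.07 (highest) in the 7 MAL-BG libraries. The highest MAL-BG value, of replicate 3, lay among the CON and MAL values and the other 6 MAL-BG libraries lay below all of them. Its log2 fold change was -1.86 (SE 0.49, adjusted p = 0.00572) against CON and -1.48 (SE 0.47, adjusted p = 0.0166) against MAL. Without MAL-BG replicate 3 it was -2.52 and -2.14. Tmem237 (chr1:59100584-59120422), a membrane protein of the Meckel module, had the highest level per kilobase of all 73 genes in CON (28.8 CPM per kb) but not in MAL-BG (11.3). It read 33.2, 122, 68.7 and 51.5 CPM in the 4 CON libraries, 35.7, 82.6, 80.5, 22.6 and 61.3 in the 5 MAL libraries, and 16.6 (lowest), 25.1 (median) and 48.5 (highest) in the 7 MAL-BG libraries. CON replicate 2 stood far above the rest, CON replicate 1 and the 2 lowest MAL libraries were within the MAL-BG range, and the log2 fold change was -1.35 (SE 0.37, adjusted p = 0.00708) against CON and -1.06 (SE 0.35, adjusted p = 0.0203) against MAL. This call depended on single libraries, since the adjusted p was 0.0533 against CON without CON replicate 2, and 0.0612 and 0.0602 against MAL without MAL replicate 2 or 3.

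Cep290 (chr10:100487548-100575671), which links the membrane to the microtubules of the transition zone, separated MAL-BG from the other 9 libraries fully. It had 24.8 ± 1.94 CPM in CON against 24.8 ± 5.16 in MAL and 10.6 ± 2.41 in MAL-BG and fell, with a log2 fold change of -1.23 (SE 0.17, adjusted p = 7.02e-05) against CON and -1.23 (SE 0.16, adjusted p = 4.65e-05) against MAL.

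Tctn1 (chr5:122239495-122264489), a tectonic of the Meckel module, had 27.2 ± 5.47 CPM in CON against 27.7 ± 3.65 in MAL and 21.3 ± 4.04 in MAL-BG, and its log2 fold change of -0.35 relative to CON and -0.38 relative to MAL was not called. Hvcn1, on the opposite strand, covers 18.98% of its exon length. Tmem17 (chr11:22512283-22519231) had the highest fold change of the group against CON, not called. It read 3.61, 6.22, 4.73 and 4.31 CPM in the 4 CON libraries, 3.92, 5.37, 6.28, 3.55 and 4.38 in the 5 MAL libraries, and 4.06 (lowest), 5.36 (median) and 7.96 (highest) in the 7 MAL-BG libraries. All 3 ranges overlapped, and the difference was 0.26 (SE 0.24, adjusted p = 0.405) against CON and 0.26 (SE 0.22, adjusted p = 0.36) against MAL.

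CEP genes of distal appendages and ciliogenesis split into a few large falls and a quiet majority. Of 13, 4 fell in both comparisons, Cep126, Cep162 and Cep83 among them, where 18.2% of all genes fell in both. In this group 0 rose, where 11.4% of all genes rose against CON and 10.2% against MAL. Against CON, no gene of the group lay between the smallest of these falls, Cep83 at -1.44, and Cep19 at -0.60, which was not called. The group medians were -0.31 and -0.27.

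Cep126 (chr9:8076460-8134479), a centrosomal protein needed for ciliogenesis, had the largest fall of the 73. It read 4.99, 10.9, 5.91 and 11.1 CPM in the 4 CON libraries, 5.02, 13.1, 10.5, 2.74 and 8.20 in the 5 MAL libraries, and 0.416 (lowest), 1.19 (median) and 2.76 (highest) in the 7 MAL-BG libraries. MAL replicate 4, the lowest MAL library, was at the level of the highest MAL-BG library, and the CON libraries lay above all MAL-BG libraries. Its log2 fold change was -2.65 (SE 0.44, adjusted p = 0.00025) against CON and -2.60 (SE 0.43, adjusted p = 0.000226) against MAL, which is 6.28-fold and 6.05-fold lower, at a level of a few CPM.

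Cep162 and Cep83 separated MAL-BG from the other 9 libraries fully. Cep162 (chr9:87189573-87255536), which sits at the distal end of the centriole and promotes transition zone assembly, had 20.4 ± 2.35 CPM in CON against 20.8 ± 4.59 in MAL and 5.87 ± 1.90 in MAL-BG and fell, with a log2 fold change of -1.80 (SE 0.22, adjusted p = 2.12e-05) against CON and -1.82 (SE 0.21, adjusted p = 1.43e-05) against MAL. Cep83 (chr10:94688624-94790336), a distal appendage protein, had 31.3 ± 4.35 CPM in CON against 29.4 ± 3.52 in MAL and 11.5 ± 3.002 in MAL-BG and fell, with a log2 fold change of -1.44 (SE 0.17, adjusted p = 2.12e-05) against CON and -1.35 (SE 0.16, adjusted p = 2.59e-05) against MAL. Cep83os, a long noncoding RNA gene that starts beside Cep83 on the other strand and matched the naming rule, had 8.83 ± 0.981 CPM in CON against 8.81 ± 1.22 in MAL and 9.11 ± 1.11 in MAL-BG. The log2 difference was 0.05 relative to CON and 0.05 relative to MAL, not called, beside -1.44 and -1.35 for Cep83. This pair was picked after its values were seen.

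Others of this group were not called. Cep164 (chr9:45766946-45828686), a distal appendage protein needed for docking, had 34.8 ± 7.45 CPM in CON against 35.6 ± 2.41 in MAL and 30.3 ± 7.40 in MAL-BG, with a log2 fold change of -0.20 relative to CON and -0.23 relative to MAL. Cep120 (chr18:53681723-53745636), which acts in centriole elongation and had the highest CPM of the group, read 47.5, 50.0003, 45.002 and 48.5 CPM in the 4 CON libraries, 50.5, 48.6, 47.4, 42.6 and 47.8 in the 5 MAL libraries, and 39.8 (lowest), 48.2 (median) and 49.1 (highest) in the 7 MAL-BG libraries. Its values were nearly level, with differences of -0.05 (SE 0.09, adjusted p = 0.668) against CON and -0.04 (SE 0.08, adjusted p = 0.721) against MAL. Cep72 (chr13:74036495-74062319), a satellite protein, had the highest fold change of the group, 0.14 (SE 0.28, adjusted p = 0.7) against CON and 0.06 (SE 0.26, adjusted p = 0.876) against MAL, not called. It read 4.91, 2.505, 2.99 and 1.82 CPM in the 4 CON libraries, 4.001, 1.94, 3.44, 4.43 and 2.47 in the 5 MAL libraries, and 2.96 (lowest), 3.30 (median) and 3.86 (highest) in the 7 MAL-BG libraries. The signs of Cep164, Cep120 and Cep72 changed under other scalings or without single libraries.

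Among the other CEP genes, 6 of 22 fell against CON, 8 fell against MAL, and Cep44 rose in both, with medians of -0.17 and -0.28. Of all genes, 21.7% and 20.2% fell. Those that fell in both were Cep85l, Cep170b, Cep128, Cep295, Cep135 and Cep250, with functions from centriole assembly to the linker that holds centrioles together. Cep152, Cep63 and Cep57, which are core centriole genes, were not called, so centriole genes stood on both sides of the call.

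Cep85l (chr10:53273441-53379883), a protein of the pericentriolar material, read 13.1, 12.9, 10.1 and 11.1 CPM in the 4 CON libraries, 18.3, 7.46, 14.5, 8.22 and 15.8 in the 5 MAL libraries, and 1.49 (lowest), 2.06 (median) and 5.41 (highest) in the 7 MAL-BG libraries. Every MAL-BG library lay below every other library. Its log2 fold change was -2.14 (SE 0.33, adjusted p = 0.000135) against CON and -2.26 (SE 0.31, adjusted p = 6.44e-05) against MAL, which is 4.40-fold and 4.80-fold lower. Cep44 (chr8:56531516-56550876), a protein of the inner centriole, read 9.83, 11.04, 10.01 and 11.6 CPM in the 4 CON libraries, 10.5, 9.18, 10.8, 14.5 and 10.4 in the 5 MAL libraries, and 10.9 (lowest), 19.7 (median) and 23.9 (highest) in the 7 MAL-BG libraries. In MAL-BG, 4 of the 7 values lay above all others and 3 overlapped them, and the log2 fold change was 0.75 (SE 0.20, adjusted p = 0.00688) against CON and 0.69 (SE 0.19, adjusted p = 0.0074) against MAL, which is 1.68-fold and 1.61-fold higher. Cep170 (chr1:176729072-176813979), of the subdistal appendages, had the highest CPM of the 73. It read 131, 105, 113 and 105 CPM in the 4 CON libraries, 135, 97.3, 119, 132 and 129 in the 5 MAL libraries, and 66.2 (lowest), 100.3 (median) and 165 (highest) in the 7 MAL-BG libraries. The spread in MAL-BG covered both other groups, and the difference was -0.17 (SE 0.19, adjusted p = 0.493) against CON and -0.28 (SE 0.18, adjusted p = 0.222) against MAL. Cep68 (chr11:20227037-20249424), of the centriole linker, had 100.1 ± 20.2 CPM in CON against 109 ± 16.9 in MAL and 89.5 ± 31.3 in MAL-BG, and its log2 fold change of -0.16 relative to CON and -0.29 relative to MAL was not called.

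Cep250 (chr2:155956285-155998900), another linker protein, named after its values were seen, had 88.8 ± 20.7 CPM in CON against 94.0 ± 6.34 in MAL and 56.2 ± 7.70 in MAL-BG and fell, with a log2 fold change of -0.66 (SE 0.13, adjusted p = 0.000789) against CON and -0.74 (SE 0.12, adjusted p = 0.00023) against MAL. So 2 proteins of the same linker differed in call, and the difference between them was not tested. Opposite-strand genes cover 11.08% of the exon length of Cep250.

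**Figure D4:**
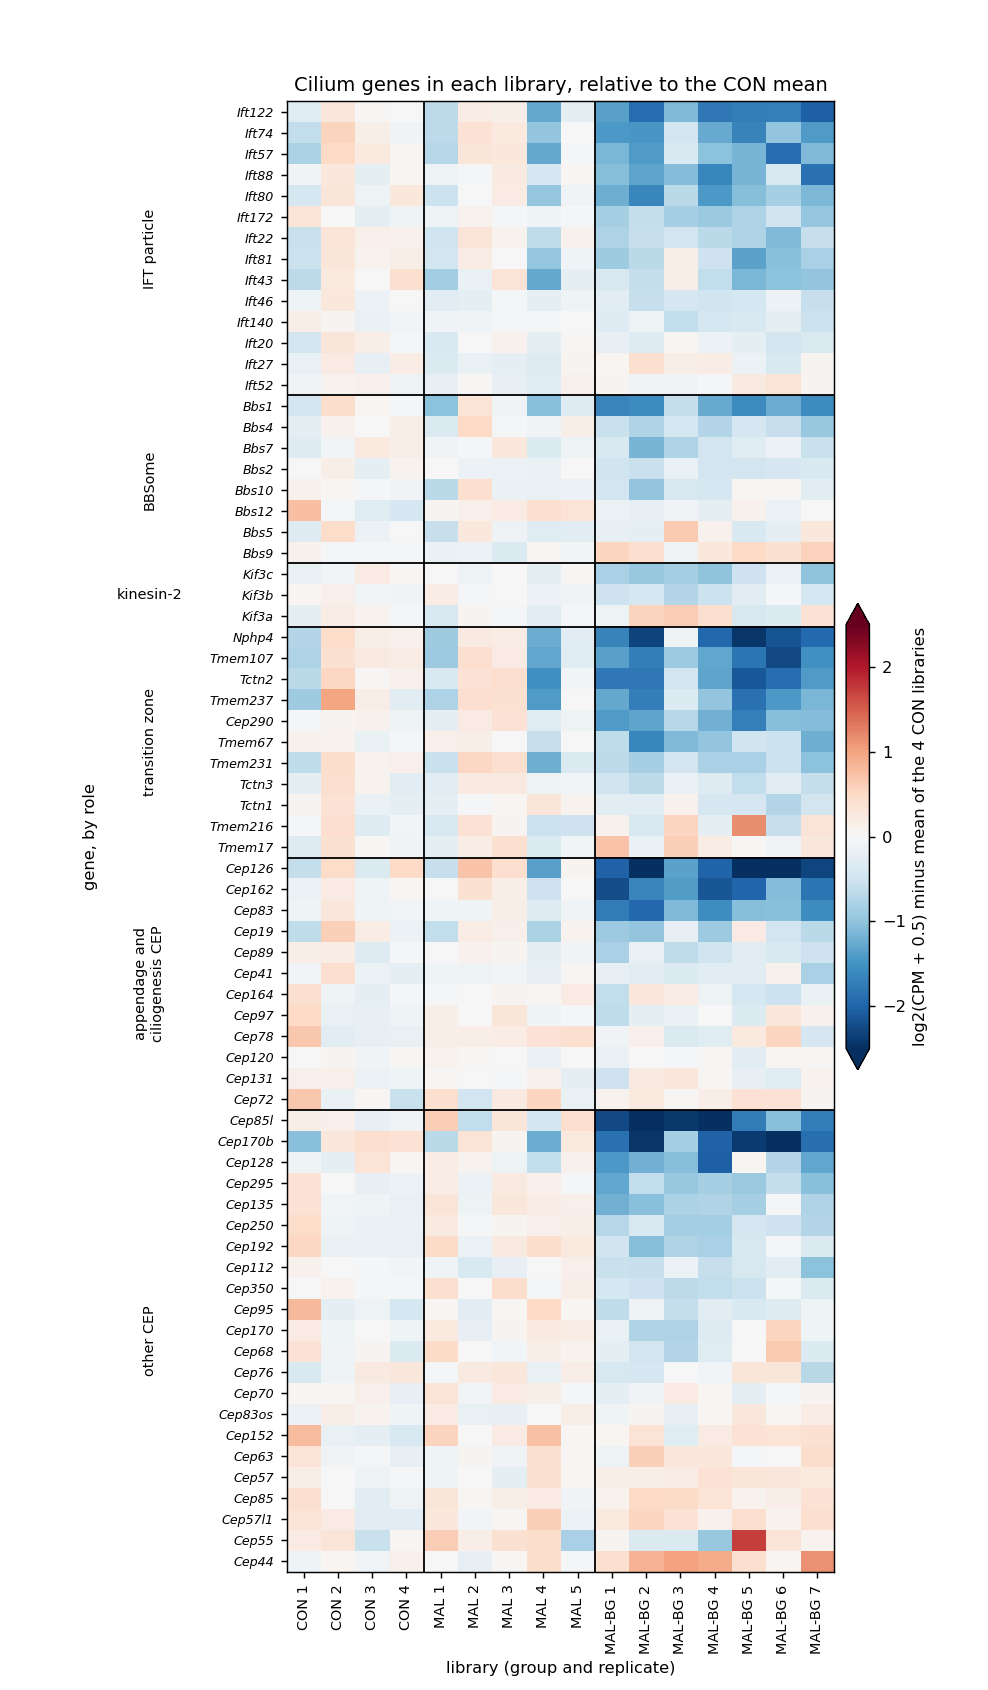
Level of 70 of the 73 genes in each of the 16 libraries as log2(CPM + 0.5) minus the mean of the 4 CON libraries, with genes grouped by role and ordered by fold change. The 7 MAL-BG columns are blue over the IFT, transition zone and leading CEP rows. CON 1, MAL 1 and MAL 4 are also blue over many IFT and transition zone rows, and MAL-BG 3 is the palest of its group there.

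Cilium genes with names outside the rule were also mostly lower where called. Of 74 tested of 79 listed, 36 fell and 3 rose against CON, 31 fell and 3 rose against MAL, and the medians were -0.61 and -0.52, against the same 21.7%, 11.4%, 20.2% and 10.2% of all genes. Among 16 IFT and BBSome genes, 8 fell against CON and 7 against MAL, and Wdr35, of IFT-A, had the largest fall with 31.1 ± 9.80 CPM in CON against 27.1 ± 12.48 in MAL and 7.51 ± 1.26 in MAL-BG (-2.05 and -1.85, log2 fold changes against CON and MAL, in that order here and below). Ttc30a1, an IFT-B gene, rose (0.82 and 0.69).

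For dynein-2, the motor that carries IFT trains back, 3 of 5 genes fell and 1 rose in each comparison. Dync2h1, its heavy chain, had 18.8 ± 4.53 CPM in CON against 18.2 ± 4.35 in MAL and 7.23 ± 1.87 in MAL-BG and fell (-1.38 and -1.33), and Tctex1d2, a light chain, rose (0.84 and 0.61). At the transition zone, 5 of 11 further genes fell against CON and 4 against MAL, led by Nek8 (-1.44 and -1.35). Basal body and satellite genes fell in 8 of 21 in each, including Pcm1, the scaffold of centriolar satellites, with 89.5 ± 7.13 CPM in CON against 93.5 ± 9.03 in MAL and 59.7 ± 6.84 in MAL-BG (-0.58 and -0.65).

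Proteins that signal in the cilium were represented by 11 genes, of which 7 fell and 1 rose against CON, and 6 fell and 1 rose against MAL. Ptch1, the Hedgehog receptor, had 10.3 ± 1.42 CPM in CON against 12.2 ± 3.15 in MAL and 2.83 ± 1.37 in MAL-BG (-1.85 and -2.09). Pkd1, polycystin 1, had 214 ± 31.4 CPM in CON against 209.7 ± 17.3 in MAL and 103 ± 11.02 in MAL-BG (-1.05 and -1.02). Adcy3, the adenylyl cyclase of neuronal cilia, rose (0.69 and 0.63). For small GTPases and lipid enzymes of the ciliary membrane, 5 of 10 fell against CON and 3 against MAL, and Rab8a did not pass (0.20 and 0.16). Of 8 tested transcription factors of the RFX family and of ciliogenesis, 6 fell in both, with medians of -1.42 and -1.22. Foxj1, the master factor of motile cilia, had 81.8 ± 26.0 CPM in CON against 60.4 ± 32.8 in MAL and 13.5 ± 8.19 in MAL-BG (-2.60 and -2.16), whereas Rfx1 had 44.9 ± 10.3 CPM in CON against 42.2 ± 2.52 in MAL and 43.1 ± 7.96 in MAL-BG and was not called (-0.06 and 0.03).

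Markers of other ciliated cells moved with these genes. The 10 choroid plexus markers, led by Ttr, all fell against CON and 9 fell against MAL. Their summed level ran from 13889 to 53900 CPM for CON, from 6445 to 42394 in MAL and from 1770 to 16529 in MAL-BG. This sum is unweighted and mostly follows Ttr and Enpp2. In CON they averaged 23106.5 and 7522 CPM, of a mean sum of 32198 CPM. The 12 ependymal markers fell in 11 and in 10, with sums of 189.1 to 337.8, 89.2 to 309.0 and 42.9 to 131.0 CPM. Of 12 neuronal markers 11 fell in each, with sums of 61.7 to 301.5, 86.8 to 243.0 and 20.4 to 79.4 CPM, and of 9 astrocyte markers 4 and 5 fell, with sums of 281.1 to 611.1, 351.1 to 561.1 and 154.7 to 280.3 CPM. No marker that passed the count filter was at 0 in all libraries of a group. In bulk RNA, fewer cells of a type and less RNA per cell cannot be told apart.

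Other lists ran the opposite way or stayed mixed. Of 12 microglial markers 7 rose and 0 fell in each comparison, with sums of 17780 to 28790, 18391 to 31419 and 38118 to 51596 CPM. All 9 tested neutrophil markers rose in each, with sums of 55.6 to 199.2, 45.1 to 333.5 and 196.3 to 12979 CPM. Of 10 proliferation genes 4 rose against CON and 0 against MAL, with sums of 18.2 to 40.8, 19.7 to 60.03 and 35.8 to 229.3 CPM. For 10 oligodendrocyte genes 3 rose and 2 fell in each (422.2 to 1071, 628.9 to 931.0 and 541.7 to 1271 CPM). Endothelial markers rose in 2 of 7 against CON and 3 against MAL (509.3 to 1781, 466.7 to 1307 and 1087 to 3333 CPM), and of 9 mural and fibroblast markers 1 fell against CON, and 2 fell and 1 rose against MAL (215.0 to 1079, 333.7 to 721.6 and 313.1 to 1042 CPM).

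Choroid plexus marker levels already differed widely among libraries of the groups that received no bacteria, and many cilium genes differed with them. Over the 9 CON and MAL libraries, the log2 levels of 24 of the 73 genes were correlated with the log2 marker sum at an adjusted p under 0.05, 23 of them positively (219 relations, 73 genes with 3 marker lists, a comparison set up after the values were seen). All 24 kept their sign without the 2 libraries farthest from the median, MAL replicates 4 and 1. Of the 30 genes that fell against CON, 18 were among them, and 17 passed with ependymal and 6 with neuronal markers, in either direction. The like share among all genes that fell was not computed. With ependymal markers 18 genes passed, all positively, and with neuronal markers 14 passed, 5 positively and 9 negatively. By rank (Spearman's rho) fewer passed, 14 with choroid plexus markers, 5 with ependymal markers, Cep68 negatively, and 4 with neuronal markers. Such relations were common over all genes too. At an unadjusted exact permutation p under 0.05, 38.4% of the 73 and 23.5% of all genes tested were positively correlated with the choroid plexus sum, and 9.59% and 18.8% negatively. For the ependymal sum these shares were 32.9% and 20.1% positively, and for the neuronal sum 26.0% and 23.1%.

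Of these genes, 6 are given as examples picked after their values were seen. Ift57 (chr16:49699294-49765126), an IFT-B subunit that fell (-1.21 and -0.96), gave r = 0.99 (exact permutation p = 4.13e-05, adjusted p = 0.00181), rho = 0.97 (exact permutation p = 0.000165), and r = 0.98 without 2 libraries. For Tmem237 the values were r = 0.98 (exact permutation p = 8.27e-06, adjusted p = 0.000905), rho = 0.98 (exact permutation p = 4.96e-05), and r = 0.98 without 2 libraries. Nphp4 gave r = 0.98 (exact permutation p = 7.44e-05, adjusted p = 0.00233), rho = 0.98 (exact permutation p = 4.96e-05), and r = 0.93 without 2 libraries. By these 3 genes the 9 libraries stood in nearly the order of the marker sum. For the other examples r was lower or negative. Cep83 gave r = 0.77 (exact permutation p = 0.016, adjusted p = 0.0548), rho = 0.68 (exact permutation p = 0.0503), and r = 0.62 without 2 libraries. Cep85l gave r = 0.03 (exact permutation p = 0.932, adjusted p = 0.945), rho = -0.18 (exact permutation p = 0.644), and r = -0.20 without 2 libraries. Cep250 gave r = -0.62 (exact permutation p = 0.0756, adjusted p = 0.143), rho = -0.55 (exact permutation p = 0.133), and r = -0.76 without 2 libraries. For Ift172, whose MAL-BG values lay below all others, r was -0.03, and -0.59 without the 2 libraries. Within the 7 MAL-BG libraries r was 0.77 for Ift57, 0.91 for Tmem237 and 0.89 for Nphp4, and 0.33 for Cep83, -0.23 for Cep85l and -0.87 for Cep250. CON and MAL alone, with under 6 libraries each, are given no r, and for Ift172 and Cep85l its sign differed between them.

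**Figure D5:**
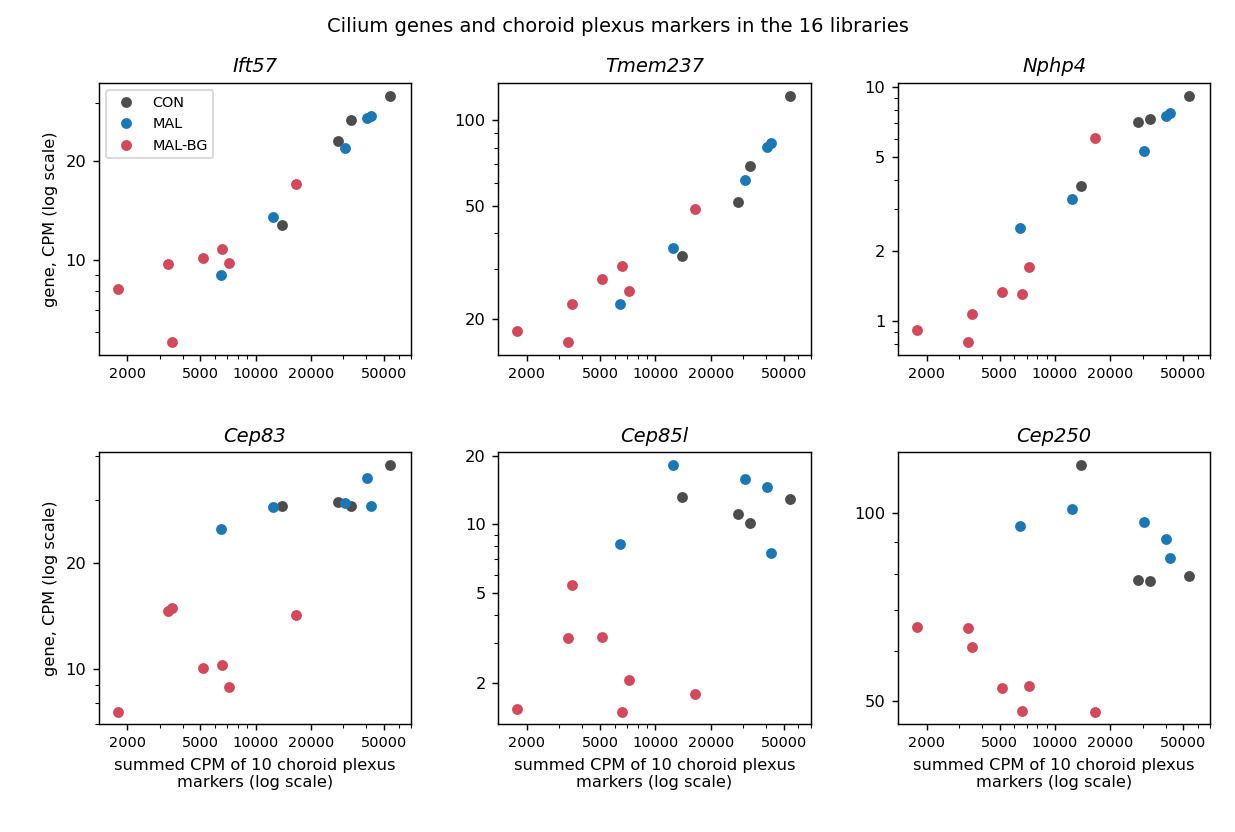
CPM of 6 cilium genes against the summed CPM of 10 choroid plexus markers in the 16 libraries, both on log axes, coloured by group. The sum is made up mostly of Ttr and Enpp2. For Ift57 and Tmem237 the MAL-BG points overlap or extend the line of the CON and MAL points, for Nphp4 MAL-BG 3 lies above it and the others lie low, and for Cep83, Cep85l and Cep250 they lie below CON and MAL points of like choroid plexus marker level.

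Some MAL-BG libraries can be set beside CON or MAL libraries of a like choroid plexus marker level, within 1.4-fold. A like level here is mainly a like level of Ttr and Enpp2, which make up most of the sum. MAL-BG replicate 3 (16529 CPM) lay near CON replicate 1 (13889) and MAL replicate 1 (12417), and MAL-BG replicates 1, 4 and 7 (7180, 6587 and 5137) lay near MAL replicate 4 (6445). Other markers were not matched. The ependymal sum was 131.0 CPM in MAL-BG replicate 3 beside 189.1 and 181.6, and 60.5, 63.3 and 73.6 in replicates 1, 4 and 7 beside 89.2. The neuronal sum was 79.4 beside 61.7 and 136.1, and 35.7, 45.8 and 31.9 beside 86.8, and the astrocyte sum was 280.3 beside 281.1 and 461.9, and 176.4, 230.4 and 154.7 beside 351.1.

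In these pairings 36 of the 73 genes (49.3%) were lower in all 4 MAL-BG libraries than in the libraries beside them, as were 28.2% of all genes tested. In MAL-BG replicate 3 alone 39 of the 73 were lower (53.4% against 41.1% of all genes), and in replicates 1, 4 and 7 it was 60, 52 and 52 (82.2%, 71.2% and 71.2% against 52.9%, 52.3% and 51.2%). Of the 30 genes that fell against CON, a set picked as lower with these same libraries, 18 were lower in every one of these 4 MAL-BG libraries than in the libraries beside it. They included Ift122, Ift88, Ift80, Ift172, Bbs4, Kif3c, Cep290, Tmem67, Cep126, Cep162, Cep83, Cep85l, Cep128, Cep295, Cep135 and Cep250. Ift57, Ift81, Tmem237 and Tmem231 were lower in none of the 4, and the other 8 differed from library to library. This comparison of single libraries was chosen after their values were seen and has no test.

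For MAL-BG replicate 3, Tmem237 was at 48.5 CPM beside 33.2 in CON replicate 1 and 35.7 in MAL replicate 1, and Ift57 was at 17.02 beside 12.7 and 13.5. Cep83 was at 14.2 CPM there, beside 28.9 and 28.8, and Cep85l was at 1.79, beside 13.1 and 18.3. Tmem237 and Ift57 were thus higher, and Cep83 and Cep85l lower, in this MAL-BG library than in the libraries beside it. These genes were picked after their values were seen. The part of the other cell types in the falls was not tested.

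Leaving out libraries that stand apart, a choice made after the data were seen, left the counts close to those above. Within MAL-BG, replicate 3 has the most choroid plexus RNA and replicate 5 the most neutrophil RNA. Without MAL-BG replicates 3 and 5, 33 genes fell against CON and 32 against MAL, and 1 rose in each. Of all genes, 23.7% and 22.3% then fell, and 11.9% and 10.6% rose. Without CON replicate 1 and MAL replicate 4, which have the least choroid plexus RNA of their groups, 30 and 31 fell and 1 and 2 rose. The medians of the 73 were -0.37 and -0.39. Of all genes, 21.7% and 20.5% then fell, 17.4% and 15.1% rose, and the medians were 0.05 and 0.03. Labels name no batch for any library, so no value within a batch could be given.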

How the data were processed

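CD11b+ cells from 16 libraries (4 CON, 5 MAL, 7 MAL-BG) were profiled by paired-end RNA-Seq of 42-base reads. Per the labels and methods, the authors aligned reads to GRCm38.p6 with STAR, used HTSeq to count reads per gene, and deposited these raw counts. Counting mode and strand setting are not given in the sources used here. Columns name a group and a running number, so each column was used as a replicate of its group. The authors' model had a batch term, but no label names a batch, so none was fitted. Nothing says that libraries came from separate animals, and p-values measure the spread between these samples.

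Genes exceeding 10 counts in 4 or more libraries entered the edgeR fit (4.0.16 in R 4.3.3, with TMM scaling, the quasi-likelihood F test and Benjamini-Hochberg adjustment over 14565 genes), and SE is the log2 fold change divided by the square root of F. CPM use TMM-scaled totals. DESeq2 1.42.0, other scalings and filters, depth-matched counts, length and GC offsets, and omission of libraries were alternatives, and the test was checked on simulated counts. The members and lists were chosen with earlier results of these data known. The values of 3 of the 73 genes are not reported here, and the counts over all 73 include them. Named genes were, in each role group, the 2 with the highest mean CPM and those with the largest fall and rise against CON, the genes that rose in both comparisons, the 6 largest falls without overlap between groups, and for other lists the same by level, fall and rise.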

Additional observations from a re-analysis of the deposited data

Results flagged for a closer look

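In groups of 4 to 10 libraries, the library farthest from the rest was flagged where its gap to the nearest other exceeded Dixon's 95% limit. This marked 10 of 108 groups of values, where chance alone gives about 1 in 20. Nphp4 stood at 6.07 CPM in MAL-BG replicate 3, against 0.814 to 1.71 in the other 6, and Bbs1 stood at 13.99 CPM in the same library, against 6.49 to 8.74. That library also had the highest choroid plexus sum of its group, 16530 CPM against 1770 to 7180, and the highest ependymal sum, 131.0 CPM against 42.9 to 73.6. The part of these markers in the Nphp4 and Bbs1 values was not tested.

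Cep68 stood at 155.2 CPM in MAL-BG replicate 6, against 59.1 to 98.1 in the others. Bbs9 was at 39.2 CPM in CON replicate 1, against 34.9 to 35.6. Cep83 was at 37.8 CPM in CON replicate 2, against 28.9 to 29.7. The median of the 73 genes relative to the CON mean was 0.13 on the log2 scale in CON replicate 2, and -0.08 to -0.04 in the other CON libraries. MAL-BG replicate 5 had a neutrophil sum of 12980 CPM, against 196.3 to 2977, and a proliferation sum of 229.3 CPM, against 35.8 to 66.5.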

How the results depend on the processing

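No paired analysis was possible because the columns carry running numbers that match no sample title. MAL versus CON called 0 of the 73 genes under every alternative run. Scaling by the mean log2 CPM, no limit on size (40 and 37 genes fell) and omission of libraries are set apart. Under the remaining alternatives 30 to 31 genes fell against CON and 26 to 30 against MAL. The alternatives kept in that count gave falls in 17.4% to 22.1% of all genes against CON and 16.4% to 20.8% against MAL. Leaving out 1 or 2 libraries gave 26 to 33 lower against CON (26 without MAL-BG replicate 4) and 28 to 32 against MAL. Of all genes, 18.3% to 23.7% were then lower against CON and 16.9% to 22.3% against MAL. Of the 73, 1 was higher against CON and 1 to 2 against MAL. Their medians were -0.51 to -0.37, -0.46 to -0.35 and, for MAL versus CON, -0.08 to 0.01. Scaling by the mean log2 CPM gave 22 and 24 lower, 2 and 2 higher, and medians of -0.23 and -0.21, with 2229 lower and 3120 higher over all genes against MAL in place of 2944 and 1479. With length and GC offsets too, it gave 20 and 18 lower, 3 and 3 higher, and medians of -0.26 and -0.21. Of all genes, 16.2% and 15% were then lower and 22.1% and 20.3% higher. The offsets alone, and omission of CON replicate 1 and MAL replicate 4, each gave 2 higher against MAL, and the latter a median of -0.37 against CON. Without the limit on size 2 and 2 were higher.

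None of the named genes that were called reversed. Uncalled genes among those named changed sign as follows (log2 fold change). With length and GC offsets, against CON, Ift52 was -0.093, Tmem17 -0.0028, Cep164 0.18, Cep120 0.076 and Cep170 0.16, and against MAL, Tmem17 was -0.028, Cep164 0.095, Cep120 0.10 and Cep170 0.10. With mean log2 CPM scaling, against CON, Cep164 was 0.028, Cep120 0.20, Cep170 0.081 and Cep68 0.087, and Cep120 was 0.19 against MAL. With both, against CON, Tctn1 was 0.13, Cep164 0.40, Cep120 0.32, Cep170 0.40 and Cep68 0.13, and against MAL, Tctn1 was 0.047, Cep164 0.31, Cep120 0.32, Cep170 0.32 and Cep68 0.0029. With libraries left out, values against CON ran from -0.29 to 0.031 for Cep164, -0.35 to 0.056 for Cep68, -0.090 to 0.025 for Cep120 and -0.046 to 0.55 for Cep72, and against MAL from -0.085 to 0.023 for Cep120 and -0.089 to 0.24 for Cep72. Ift172 and Kif3c lost the size limit under mean log2 CPM scaling, and Kif3c did so against MAL with offsets (-0.53). The cause of these changes was not tested.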
